A study of Mus musculus with 8 samples.

Results

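The genes described here are the Myc and Max network of transcription factors in mouse follicular B cells: Myc, Bmyc, Max, Mxi1 and Mxd4. They were taken as all probe sets of the array whose platform annotation gives 1 of these symbols. This gave 5 probe sets, 1 for each gene, of the 12488 on the array, or 5 of 8251 genes with a symbol of their own, and all 5 were among the 7453 bright enough to be tested. RNA was measured on 8 single-colour oligonucleotide arrays in 4 groups of 2: IgMG cells with HEL, unstimulated IgMG cells, IgM cells with HEL and unstimulated IgM cells. All cells carried a B cell receptor against hen egg lysozyme (HEL), and HEL was the antigen used for stimulation. IgM cells had the receptor as IgM. IgMG cells had a chimera in which the stretch next to the membrane outside the cell, the membrane-spanning stretch and the cytoplasmic tail came from IgG1 in place of IgM. For mouse strain, age and length of stimulation, no value is given in the sources used here. The cells on an IgMG array came from 5 to 8 mice and those on an IgM array from 2 or 4 mice, pooled after sorting, so receptor and number of mice pooled cannot be told apart.

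Myc is a transcription factor that drives growth and cell-cycle entry, and B cells make it soon after their receptor meets antigen. It works only as a dimer with Max, and the dimer binds a short DNA palindrome called the E-box near the genes it activates. The Mxd proteins, Mxi1 and Mnt bind Max as well, occupy the same DNA motif, and recruit the Sin3 corepressor with histone deacetylases. Max is therefore the shared partner of an activator and of several repressors.

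The E-box was searched in the promoter windows of these genes, because Max dimers read that motif. A window holds 250 bases before and 50 bases after an annotated start, taken from RefSeq on build GRCm38.p6. A gene can have several such starts. For Max, Mnt, Mlx and Mxi1 every start used lies inside the annotated span of the gene. Of the 5 members, 4 matched a window. The motif is CACGTG, which reads the same on both strands. It occurred in 2349 of all 32851 windows, or 7.15%. The windows of Mxd4 and Max, and of the further network genes Mnt and Mlx, each held 1 copy, and the window of Bmyc held none. Those of Mxd4, Max, Mnt and Bmyc are shown, with the motif in capitals.
Mxd4 promoter, chr5:34187661-34187960, minus strand: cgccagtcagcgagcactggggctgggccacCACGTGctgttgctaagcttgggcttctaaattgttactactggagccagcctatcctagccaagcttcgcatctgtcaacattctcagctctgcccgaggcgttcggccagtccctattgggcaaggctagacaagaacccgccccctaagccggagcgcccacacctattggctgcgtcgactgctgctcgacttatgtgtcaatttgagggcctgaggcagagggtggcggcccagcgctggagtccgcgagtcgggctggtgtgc
Max promoter, chr12:76962199-76962498, minus strand: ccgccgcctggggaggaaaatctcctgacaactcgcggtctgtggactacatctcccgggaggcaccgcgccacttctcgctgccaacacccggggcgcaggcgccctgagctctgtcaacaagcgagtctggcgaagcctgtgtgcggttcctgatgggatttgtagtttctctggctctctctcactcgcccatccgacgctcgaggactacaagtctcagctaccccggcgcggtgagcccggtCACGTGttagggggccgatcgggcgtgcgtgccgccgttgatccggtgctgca
Mnt promoter, chr11:74830674-74830973, plus strand: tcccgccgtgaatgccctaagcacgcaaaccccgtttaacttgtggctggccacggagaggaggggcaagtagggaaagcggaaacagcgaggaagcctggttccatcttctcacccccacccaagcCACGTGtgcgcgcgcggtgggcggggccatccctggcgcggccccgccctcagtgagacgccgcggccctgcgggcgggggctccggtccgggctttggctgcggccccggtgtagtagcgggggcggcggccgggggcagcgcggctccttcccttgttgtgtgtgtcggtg
Bmyc promoter, chr2:25706629-25706928, plus strand: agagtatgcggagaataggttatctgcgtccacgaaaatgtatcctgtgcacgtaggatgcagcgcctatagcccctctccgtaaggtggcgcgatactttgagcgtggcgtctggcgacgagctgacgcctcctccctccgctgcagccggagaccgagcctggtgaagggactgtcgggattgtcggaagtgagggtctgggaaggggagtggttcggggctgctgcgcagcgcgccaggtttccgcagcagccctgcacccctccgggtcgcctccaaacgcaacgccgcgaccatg
The copy begins 219 bases before the start used for Mxd4 and 123 bases before that used for Mnt. In Mlx, on chromosome 11, it begins 40 bases before the start used. In Max it begins 3 bases before the start used and so spans it. None of the 3 windows of Mxi1, on chromosome 19, held the motif. Such a match is a run of letters, and binding was not measured. Myc itself lies on chromosome 15.

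The arrays were scaled alike, with a mean near 150.1 after trimming 2% at each end, and their median signals lay between 40.7 and 47.75. Of 9 B cell markers, 8 had a probe set, and their summed signal was 20085 to 24215 in IgMG cells with HEL and 23950 to 24844 in unstimulated IgMG cells. In IgM cells it was 18292 to 20516 with HEL and 24516 to 26431 unstimulated. T cell markers, 7 of 9 with a probe set, summed to between 49.8 and 168.4 per array. Marginal zone markers, 5 of 6 with a probe set, summed to 1209 to 1213 in IgMG cells with HEL and 1513 to 1679 unstimulated. In IgM cells they summed to 995.9 to 1018 with HEL and 933.4 to 1260 unstimulated, lower in both states. Cd9 and Cd1d1 were higher on IgMG arrays without overlap in both states, while S1pr3, Dtx1 and Notch2 were not. Erythroid markers, 4 of 8 with a probe set, summed to between 12219 and 19483 per array. Most of this sum was Hba-a1, at 9595 to 16616, while Epb42 was as low as 37.1, on the IgM array with HEL of replicate 2. 2 arrays stood apart: the unstimulated IgMG array of replicate 2, with summed signals of 12923 for 12 myeloid markers and 2168 for 6 of 8 NK cell markers, and the IgM array with HEL of replicate 2, whose Gapdh 5' to 3' signal ratio was 0.755. On the other 7 arrays in each case, the myeloid sum was at most 4962, the NK sum at most 554.7 and the Gapdh ratio at most 0.395. S100a8, S100a9 and Lyz2 made up most of the myeloid sum of that IgMG array (5339, 4097 and 1796). Itgam, Csf3r, Ccr2, Cd68 and Mpo were also highest on it, and Fcgr3 was lowest. Cd14, Csf1r and Adgre1 were highest on the IgMG array with HEL of replicate 1 (1005, 539.9 and 90.8, against 191.3, 475 and 82.4). The latter array was kept when both arrays that stood apart were left out. No marker was at exactly 0, and the part of these differences in the results below was not tested beyond the values given without both arrays. Signals in such sorted cells come from bulk RNA, in which fewer cells of a type and less RNA per cell cannot be told apart.

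**Figure D1:**
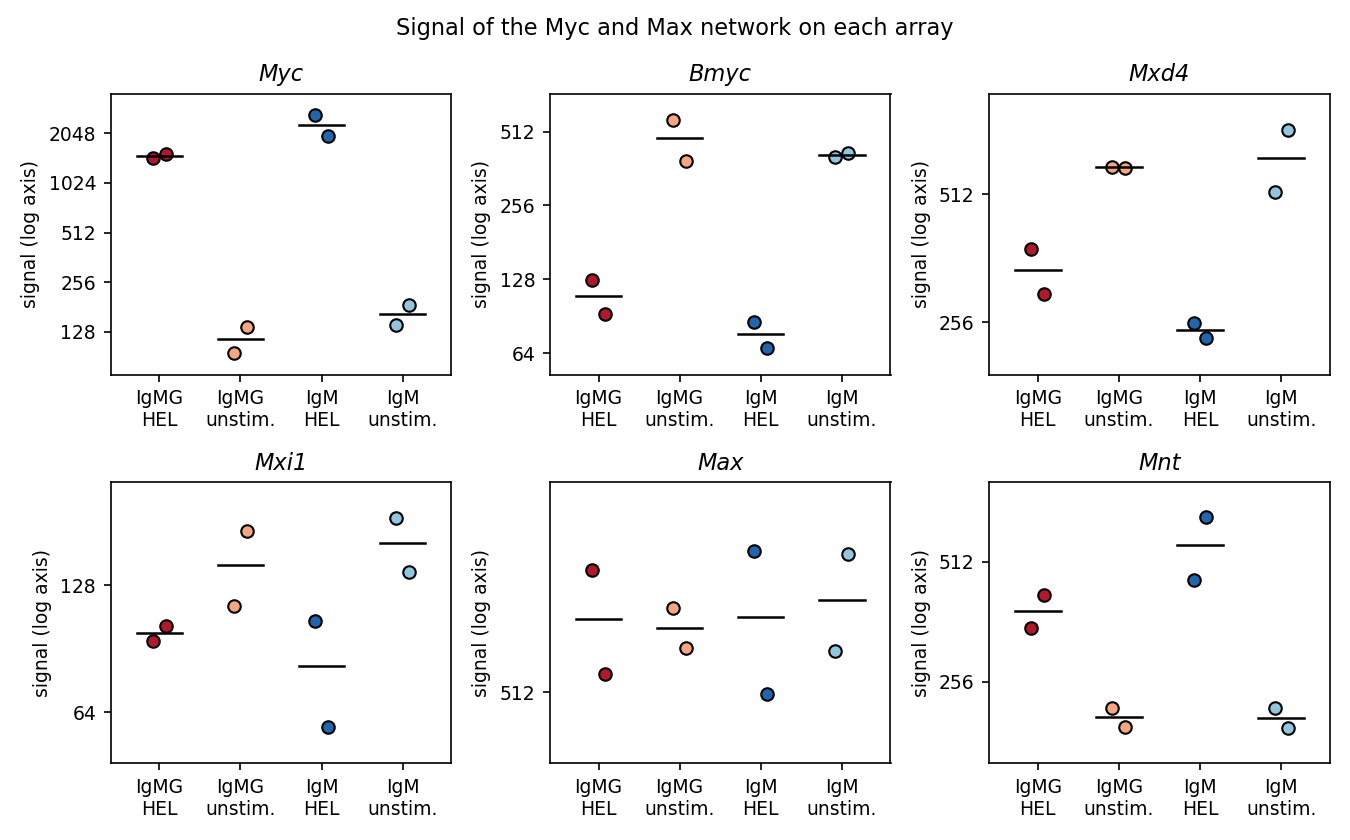
Signal on each array for the 5 members and for Mnt, a further Max partner, on a logarithmic axis with its own range in each panel. Points are arrays, 2 per group, and short lines are group means. Myc and Mnt were high and Bmyc, Mxd4 and Mxi1 low with HEL in both kinds of cell, while the groups of Max overlapped.

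The first comparison asked how antigen changed these genes. With HEL, Myc rose and Bmyc fell in both IgMG and IgM cells, Mxd4 fell in IgM cells, and Max did not pass the test in either. Of the 5 members, 1 rose and 1 fell in IgMG cells at an adjusted p under 0.05 in limma, a linear model fitted to all tested probe sets. The background was 5.39% of tested probe sets, 3.1% that rose and 2.29% that fell (231 and 171, or 215 and 78 with arrays scaled to a common median). In IgM cells 1 member rose and 2 fell, against 6.7% and 7.27% of tested probe sets, or 14% in all. The arrays with and without HEL did not overlap for 4 members in each kind of cell, Myc on the higher side and Bmyc, Mxd4 and Mxi1 on the lower. With 2 arrays against 2 that alone is common: 23.7% of tested probe sets were higher and 29.4% lower without overlap in IgMG cells, and 27.6% and 30.6% in IgM cells. Over both kinds of cell together, all 4 arrays with HEL lay above all 4 unstimulated arrays in 10.8% of tested probe sets and below them in 12.9%. Log2 changes are of signal + 16, an offset that understates the change of dim genes, and their errors are standard errors of the fit. Groups of 2 pooled arrays limit the precision, and the p-values measure the spread between these arrays. The sample titles number the arrays of a group as experiments, and whether arrays shared mice or sorts is not stated, so that this spread may be partly technical.

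Myc, the activator, had signals of 1459 and 1537 in IgMG cells with HEL, against 95.4 and 136.4 in unstimulated IgMG cells. In IgM cells its signals were 2635 and 1981 with HEL, against 140.4 and 187 unstimulated. Every array with HEL thus lay far above every unstimulated array, where 10.8% of tested probe sets were higher without overlap. The means were 1498 ± 55.4 with HEL and 116 ± 29.0 unstimulated in IgMG cells (SD, n = 2 arrays each), a ratio of 12.9. They were 2308 ± 462 with HEL and 164 ± 32.8 unstimulated in IgM cells (SD, n = 2 each), a ratio of 14.1. The log2 change was 3.54 ± 0.22 in IgMG cells, with an adjusted p = 1.07e-04 in limma, and 3.69 ± 0.22 in IgM cells, with an adjusted p = 5.01e-05. Ranked by log2 change among the 7453 tested probe sets, Myc was the 9th highest in IgMG cells and the 13th highest in IgM cells.

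Bmyc is a rodent relative of Myc whose protein has a Myc-like amino-terminal part but lacks the region that binds Max and DNA. Its signals were 127 and 92.5 in IgMG cells with HEL, against 572 and 389.9 in unstimulated IgMG cells. In IgM cells they were 85.9 and 66.9 with HEL, against 403 and 419 unstimulated. All 4 arrays with HEL lay below all 4 unstimulated arrays, as in 12.9% of tested probe sets, the opposite order to that of Myc. The means were 109.9 ± 24.6 with HEL and 481 ± 129 unstimulated in IgMG cells, and 76.4 ± 13.4 with HEL and 411 ± 11.4 unstimulated in IgM cells (SD, n = 2 each). HEL left 0.228 of the unstimulated mean in IgMG cells and 0.186 in IgM cells. The log2 change was -1.97 ± 0.24 in IgMG cells, the 3rd lowest of all tested probe sets (limma adjusted p = 0.00294). It was -2.22 ± 0.24 in IgM cells, the 15th lowest (limma adjusted p = 7.93e-04).

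Max, the shared partner, had signals of 675 and 534 in IgMG cells with HEL, against 619.9 and 566 in unstimulated IgMG cells. Signals in IgM cells were 706 and 509 with HEL, against 563 and 701 unstimulated. The groups overlapped in both kinds of cell. The log2 change was 0.02 ± 0.21 in IgMG cells (95% interval -0.45 to 0.49, limma adjusted p = 0.973) and -0.06 ± 0.21 in IgM cells (95% interval -0.54 to 0.41, limma adjusted p = 0.878). Averaged over both receptors it was -0.02 ± 0.15, with a 95% interval of -0.36 to 0.31. A change of Max inside that interval remains possible, and the interval does not reach the change of Myc, Bmyc or Mxd4.

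Mxd4 encodes a Max partner that represses and is typical of resting and differentiated cells. Its signals were 381 and 298.5 in IgMG cells with HEL, against 594.5 and 590.0 in unstimulated IgMG cells. In IgM cells they were 256 and 235 with HEL, against 519 and 726 unstimulated. Arrays with HEL lay below unstimulated arrays in both kinds of cell, without overlap. The means were 339.6 ± 58.2 with HEL and 592 ± 3.18 unstimulated in IgMG cells, and 245 ± 14.8 with HEL and 623 ± 147 unstimulated in IgM cells (SD, n = 2 each). The log2 change passed the test in IgM cells, at -1.27 ± 0.20 (limma adjusted p = 0.00482), and did not in IgMG cells, where it was -0.78 ± 0.20 (limma adjusted p = 0.0585). This does not show that the receptors differed, which is tested further on.

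Mxi1 encodes another repressing Max partner. Its signals were 94.4 and 102 in IgMG cells with HEL, against 114.5 and 172 in unstimulated IgMG cells. On IgM arrays the values were 105 and 59.0 with HEL, against 185 and 138 unstimulated. Arrays with HEL were the lower ones in both kinds of cell, by a small margin in IgMG cells. The log2 change was -0.45 ± 0.29 in IgMG cells (limma adjusted p = 0.401) and -0.88 ± 0.29 in IgM cells (limma adjusted p = 0.0737), and neither passed the test.

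Averaging the responses of both receptors, which uses all 8 arrays, 1 member rose and 3 fell, against 9.18% and 11% of tested probe sets, or 20.2% in all. Myc rose by 3.61 ± 0.16 on the log2 scale (limma adjusted p = 3.36e-06). Bmyc had a mean change of -2.09 ± 0.17 (adjusted p = 8.73e-05), Mxd4 of -1.03 ± 0.14 (adjusted p = 0.00162) and Mxi1 of -0.67 ± 0.20 (adjusted p = 0.0469). The call for Mxi1 was lost in 12 of 17 other ways of processing. It held without the IgM array with HEL of replicate 1 or the unstimulated IgMG array of replicate 1, and was lost without any 1 of the other 6 arrays (adjusted p = 0.0675 to 0.160). Without both arrays that stood apart it was -0.36 (adjusted p = 0.187). The calls for Myc, Bmyc and Mxd4 held in all 17. Without both arrays that stood apart, the mean log2 change was 3.83 for Myc, -2.15 for Bmyc and -1.002 for Mxd4.

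**Figure D2:**
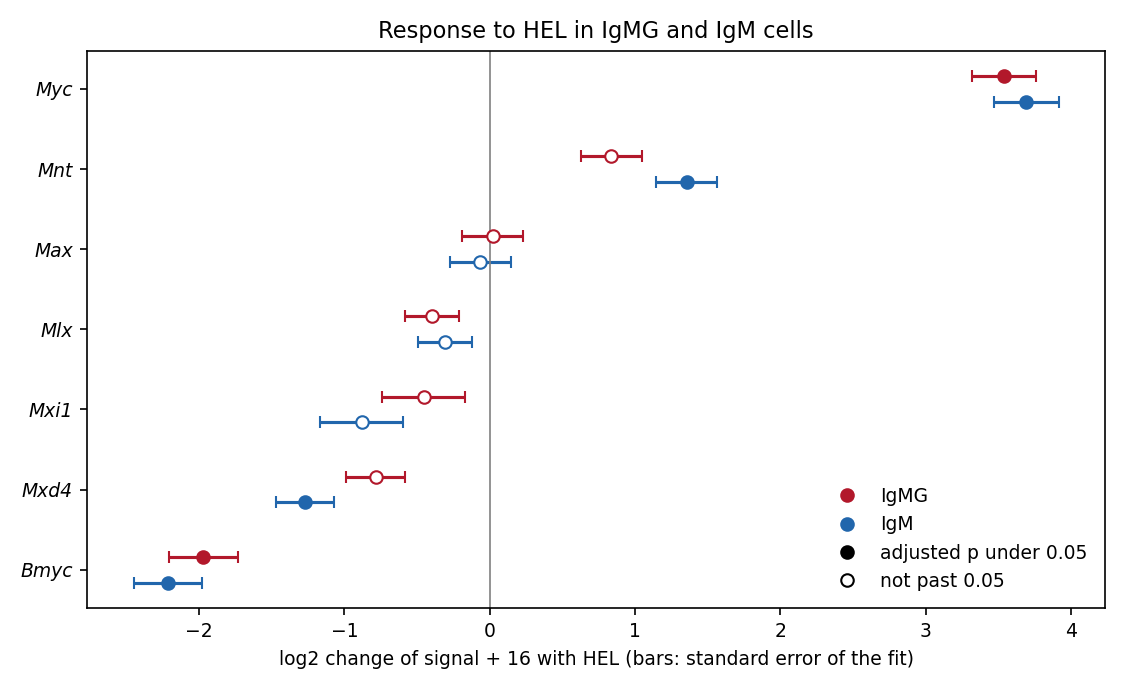
Log2 change of signal + 16 with HEL for the members and for Mnt and Mlx, in IgMG cells (upper point of each pair) and IgM cells (lower point). Bars are standard errors of the fit over 8 arrays, and filled points passed an adjusted p of 0.05. Myc and Bmyc were filled in both kinds of cell, at 3.54 and -1.97 in IgMG cells, and Mxd4 and Mnt in IgM cells.

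The next comparison asked whether these responses differed between the IgMG chimera, with all 3 of its IgG1 stretches, and IgM. Subtracting the response of IgM cells from that of IgMG cells, 0 of the 5 members passed the test in limma and 0 had an unadjusted p under 0.05, against 0% and 10.1% of tested probe sets. The difference was -0.15 ± 0.31 on the log2 scale for Myc (95% interval -0.87 to 0.56) and 0.24 ± 0.33 for Bmyc (95% interval -0.51 to 1.00). It was 0.49 ± 0.29 for Mxd4 (95% interval -0.16 to 1.14), 0.43 ± 0.40 for Mxi1 (95% interval -0.49 to 1.34) and 0.08 ± 0.30 for Max (95% interval -0.59 to 0.75). The adjusted p-values lay between 0.556, for Mxd4, and 0.942, for Max. For Mxd4 and Mxi1 the smaller log2 decrease in IgMG cells was therefore within the error of the comparison. These intervals are wide, and differences inside them remain possible.

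Setting the receptors against each other in the same state, Myc was lower on the IgMG arrays each time. With HEL its signals were 1459 and 1537 in IgMG cells, against 2635 and 1981 in IgM cells, a ratio of means of 0.649. Unstimulated they were 95.4 and 136.4 in IgMG cells, against 140.4 and 187 in IgM cells, a ratio of 0.708. The highest IgMG array lay below the lowest IgM array in both states, by a narrow margin in unstimulated cells. The log2 difference was -0.60 ± 0.22 with HEL (unadjusted p = 0.0239, adjusted p = 0.288 in limma) and -0.45 ± 0.22 without HEL (adjusted p = 0.995). Of the members, 0 passed in either state, and 1 with HEL and 0 without HEL had an unadjusted p under 0.05. Of tested probe sets, 0.0134% passed with HEL and 0% without HEL, and 13.9% and 4.62% had an unadjusted p under 0.05.

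Averaged over both states, a comparison chosen after the values were seen, Myc had a log2 difference between IgMG and IgM cells of -0.53 ± 0.16. Its unadjusted p was 0.00857 and its adjusted p 0.458 in limma, so that it did not pass. The background was 0% of tested probe sets that passed and 7.72% with an unadjusted p under 0.05. The other 4 members also did not pass, with adjusted p of 0.698 or more. Groups did not overlap, with IgMG below IgM in both states, in 2.74% of tested probe sets, and Myc was the 1 member among them. With HEL, Bmyc and Mxd4 were higher on both IgMG arrays than on both IgM arrays, by 0.44 ± 0.24 (adjusted p = 0.446 in limma) and 0.44 ± 0.20 (adjusted p = 0.381). Such gaps were found in 23.8% of tested probe sets, and gaps with IgMG below IgM, as for Myc, in 24.5%. Without HEL the groups of Bmyc, Mxd4, Mxi1 and Max overlapped between receptors. For Myc the order of the 4 group means was IgM with HEL, IgMG with HEL, unstimulated IgM and unstimulated IgMG, and of these steps HEL against no HEL passed the test for each receptor while IgMG against IgM passed in neither state.

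Further genes of the network were taken from a list of 9, of which 6 had a probe set and 2 were bright enough to be tested. Mnt, a Max partner that represses Myc targets, had signals of 348 and 423 in IgMG cells with HEL, against 219.7 and 197 in unstimulated IgMG cells. In IgM cells they were 462 and 665 with HEL, against 219.5 and 195 unstimulated. Mnt was thus high on every array with HEL, as 10.8% of tested probe sets were, unlike the other repressing partners Mxd4 and Mxi1. Its log2 change was 1.10 ± 0.15 averaged over receptors (limma adjusted p = 0.00144) and 1.35 ± 0.21 in IgM cells (adjusted p = 0.00430). In IgMG cells it was 0.84 ± 0.21 and narrowly missed the test (adjusted p = 0.0544). Mlx, a Max-like protein that pairs with Mxd4 and Mnt and with glucose-sensing factors, had a mean change of -0.35 ± 0.13 that did not pass (adjusted p = 0.0921).

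Genes that act with or on the Myc protein were taken from a pair of lists. Of 18 cofactors of Myc or of the repressors, 12 were tested, 1 rose and 0 fell in the mean response, where 9.18% of all tested probe sets rose and 11% fell. The median log2 change was -0.03, against -0.04 over all tested probe sets. The one that rose was Hdac1, a histone deacetylase of the Sin3 complex. Its signals were 649 and 577 in IgMG cells with HEL, against 260.3 and 352 in unstimulated IgMG cells. The IgM arrays had 612 and 714 with HEL, against 301 and 345 unstimulated. All arrays with HEL lay above all others, as in 10.8% of tested probe sets, and the mean log2 change was 0.99 ± 0.14 (limma adjusted p = 0.00149). Sin3a, the scaffold of that complex, had a mean change of -0.13 ± 0.21 (adjusted p = 0.725).

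Of 12 genes that govern turnover of Myc protein, 7 were tested, 0 rose and 2 fell in the mean response, where 11% of all tested probe sets fell. Their median log2 change was -0.14, against -0.04 over all tested probe sets. Fbxw7, a ubiquitin ligase subunit that marks Myc for destruction, had signals of 56.4 and 74.5 in IgMG cells with HEL, against 99.4 and 105 in unstimulated IgMG cells. In IgM cells they were 50 and 75.3 with HEL, against 112 and 111 unstimulated. It was lower on every array with HEL, as 12.9% of tested probe sets were, and its mean log2 change was -0.63 ± 0.16 (limma adjusted p = 0.0248). Ppp2r5a, a regulatory subunit of the phosphatase PP2A, changed by -0.35 ± 0.10 (adjusted p = 0.0353). These calls were lost in 5 and 11 of 17 other ways of processing, with adjusted p up to 0.0920 for Fbxw7 and 0.112 for Ppp2r5a. Gsk3a, a kinase that phosphorylates Myc, had a mean change of 0.04 ± 0.13 (adjusted p = 0.882).

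**Figure D3:**
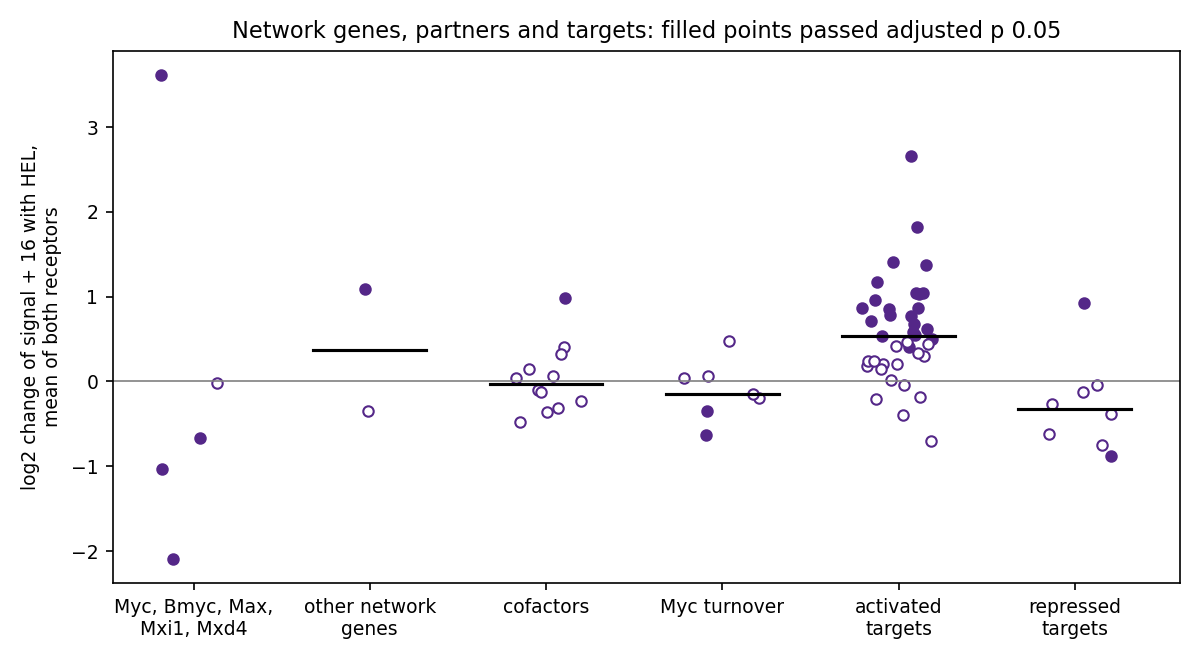
Mean log2 change of signal + 16 with HEL over both receptors for the 5 members, 2 other network genes, 12 cofactors, 7 turnover genes, 39 activated targets and 8 repressed targets. Each point is a gene, filled where the adjusted p was under 0.05, and lines are medians of the lists. The activated targets had a median of 0.54, with 22 filled points above 0 and 0 below.

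More of the genes known from other work to be activated by Myc rose than fell with HEL. Of 47 in the list, which was chosen with earlier results of these data known, 39 were tested. In the mean response 22 rose and 0 fell, where 9.18% of all tested probe sets rose and 11% fell. A positive log2 change was found for 34, and the median was 0.54, against -0.04 over all tested probe sets. In IgMG cells 11 rose and 0 fell, against 3.1% and 2.29% of tested probe sets. In IgM cells 15 rose and 0 fell, against 6.7% and 7.27%. The calls shared by both were 8 genes, 72.7% of those in IgMG cells and 53.3% of those in IgM cells. They were Ncl, Apex1, Gnl3, Nop56, Nop58, Rrs1, Ran and Ddx21, named after their values were seen. None of the 39 passed the test of the difference between the responses. It was passed by 0% of all tested probe sets, so this does not show that the responses of these genes were alike. The count in IgMG cells fell to 3 without the HEL array of replicate 1 and to 1 without that of replicate 2, and was 5 with only the 4 IgMG arrays in the fit. The count in IgM cells fell to 7 without the HEL array of replicate 2 or the unstimulated array of replicate 1, and to 8 without the unstimulated array of replicate 2.

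Gnl3, which encodes the nucleolar GTPase nucleostemin, had signals of 775 and 858 in IgMG cells with HEL, against 132 and 157 in unstimulated IgMG cells. Signals in IgM cells were 1085 and 1176 with HEL, against 108 and 164 unstimulated. The groups were far apart, and the mean log2 change was 2.66 ± 0.15 (limma adjusted p = 1.18e-05). Nop58, a core protein of small nucleolar ribonucleoproteins, rose by 1.41 ± 0.13 (adjusted p = 1.61e-04), on a probe set that may also detect related transcripts. Rrs1, a ribosome assembly factor, rose by 1.37 ± 0.14 (adjusted p = 2.83e-04). Nme2, a nucleoside diphosphate kinase gene close in sequence to Nme1 and the brightest gene of the list that did not pass, had a mean change of 0.18 ± 0.11 (adjusted p = 0.294).

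Of 10 genes known to be repressed by Myc, 8 were tested. In the mean response 1 rose and 1 fell, where 9.18% of all tested probe sets rose and 11% fell, so that the calls were near the background. A positive log2 change was found for 1 of the 8, and the median was -0.33, against -0.04 over all tested probe sets. Both calls were stress-response genes of the same family. Gadd45a had signals of 208 and 216 in IgMG cells with HEL, against 265 and 319 in unstimulated IgMG cells. In IgM cells they were 188 and 78.3 with HEL, against 306 and 355 unstimulated. It was lower on all arrays with HEL, as 12.9% of tested probe sets were. Its mean log2 change was -0.87 ± 0.22 (limma adjusted p = 0.0249), a call lost in 4 of 17 other ways of processing (adjusted p up to 0.0835). Gadd45b rose by 0.93 ± 0.19 (adjusted p = 0.0108), on a probe set that may detect related transcripts. By receptor, both genes passed in IgM cells only. The change of Gadd45a was -1.32 there (limma adjusted p = 0.0271) and -0.43 in IgMG cells (adjusted p = 0.483). For Gadd45b it was 1.31 in IgM cells (adjusted p = 0.0156) and 0.55 in IgMG cells (adjusted p = 0.282). Neither gene passed the test of the difference between the responses, which 0% of all tested probe sets passed. Fth1, the ferritin heavy chain and the brightest of the list, had a mean change of -0.05 ± 0.10 (adjusted p = 0.787), while a second probe set of Fth1 went the other way.

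The E-box described above was then counted in the promoter windows of all tested genes with 1 symbol, each gene being represented by its brightest probe set. Of 533 genes that rose in the mean response, 443 had a window, and 111 of these, 25.1%, held CACGTG. Among 592 genes that fell and had a window 59 held it, or 9.97%, and among 3510 that did not pass the threshold 402 held it, or 11.5%. In IgMG cells the motif was in 30.6% of genes that rose, 10.7% of those that fell and 12.0% of those that did not pass. In IgM cells the shares were 25.9%, 9.11% and 11.8%. Over 17 other ways of processing, the share among genes that rose in the mean response stayed between 23.4% and 28.6%, and that among genes that did not pass between 11.3% and 11.7%. Of the activated targets that rose, 7 of 17 with a window held the motif. It was in 8 of 31 tested activated targets with a window, called or not, and in 12.6% of all tested genes with a window.

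For comparison the same count was made for 7 other palindromes with the length and base composition of the E-box motif and, like it, CG at the centre: AGCGCT and TGCGCA, then GACGTC and GTCGAC, then CTCGAG, as well as ACCGGT and TCCGGA. They occurred in 3.39% to 16.9% of genes that rose, in 2.2% to 15.7% of genes that fell and in 2.05% to 17.1% of genes that did not pass. The share of CACGTG thus lay above all 7 among genes that rose, and inside their range among the other genes. These motifs differ in how common they are. GACGTC, singled out after its values were seen, was also more frequent among genes that rose, at 16.9%. Among genes that fell it was in 6.08%, and among those that did not pass in 8.77%. TGCGCA was not more frequent among genes that rose, at 15.3%, against 15.7% and 17.1%. Over all tested genes, called or not, the median mean response was 0.02 on the log2 scale for 572 tested genes with CACGTG and -0.08 for 3973 without it. These shares are a description, since genes are not replicates and other features of promoters were not matched. Which factors bind the motif at these genes was not measured.

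**Figure D4:**
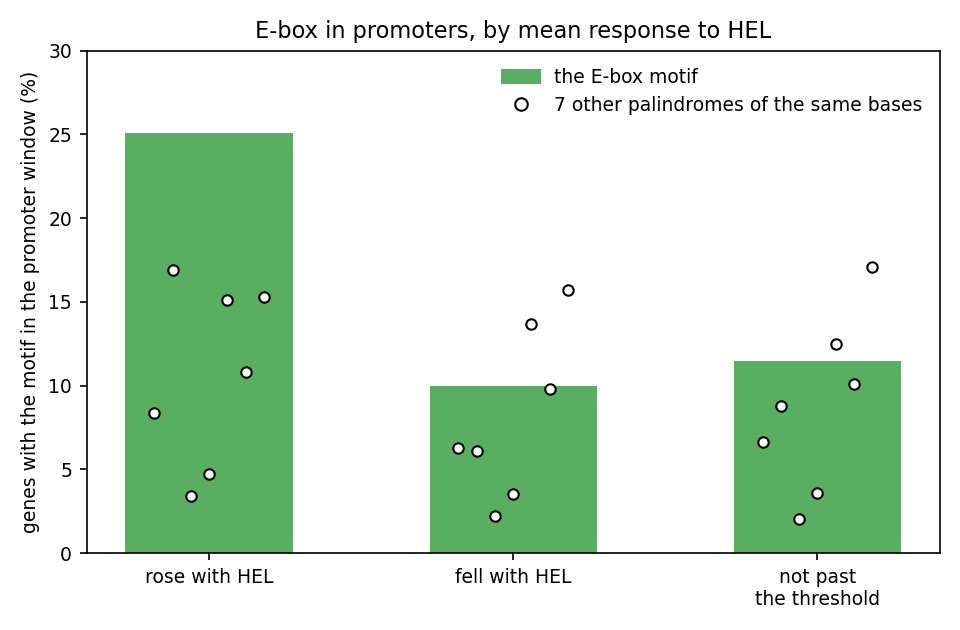
Share of genes whose promoter window holds the E-box (bars, from 0) among genes that rose, fell or did not pass the threshold in the mean response to HEL. Open points are the shares for 7 other palindromes made of the same bases. The bar is 25.1% for genes that rose, above all 7 points, and 9.97% and 11.5% for the other genes, within the range of the points. The point of GACGTC was also higher for genes that rose, at 16.9%, than for the other genes, at 6.08% and 8.77%.

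Finally, the tested probe sets of other genes were ranked by how closely their log2 signals followed those of Myc or Bmyc over the 8 arrays, as Pearson's r across 6687 probe sets. The arrays fall into a cluster with HEL and a cluster without it of 4 arrays each, within which no r was computed, and r is given as a description. Closest to Myc were Gem, a small GTPase (r = 0.996), the translation initiation factor Eif1a (r = 0.996), the zinc-finger factor Egr2 (r = 0.994), the sterol desaturase Sc5d (r = 0.994) and Marcksl1 (r = 0.994). Their mean log2 responses ran from 1.17 for Sc5d to 6.10 for Egr2, on both sides of that of Myc. Most opposed to Myc were Lamtor4, a subunit of the Ragulator complex (r = -0.991), Ralgps2 (r = -0.990) and the interferon-inducible GTPase Igtp (r = -0.989). Closest to Bmyc were the cytokine receptor Il17ra (r = 0.996), Rassf5 (r = 0.992), the signal peptidase subunit Sec11c (r = 0.991), Cdc42se1 (r = 0.990) and Evl (r = 0.990). All 5 had mean log2 responses between -1.43 for Sec11c and -0.83 for Cdc42se1, smaller in size than the -2.09 of Bmyc.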

How the data were processed

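The deposited values are linear intensities, 1 for each probe set on each array, which the authors made with MAS 5 per the submitters' processing notes. A scaling to a common trimmed mean was recognised from the values, with no other setting given in the sources used here. Groups and replicate numbers came from the sample titles. Symbols came from the platform annotation, with 1 symbol for 10833 probe sets, several for 396 and none for 1193. The 66 control probe sets were left out, log2(signal + 16) was taken, and the brightest 60% of 12422 probe sets by mean log2 value, 7453, were tested. Their lowest mean signal was 23.2.

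Tests were two-sided. One model with a mean for each group was fitted to all 8 arrays in limma 3.58.1 (R 4.3.3), with an intensity trend in eBayes, and p-values were adjusted by Benjamini and Hochberg over all 7453 with a threshold of 0.05. There were 4 residual and 4.87 prior degrees of freedom. The contrasts were both HEL responses, their mean and difference, and IgMG against IgM in each state and on average.

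The members, gene lists and alternatives were chosen with earlier results of these data known. Of each list of other genes, each given by its brightest probe set, the 3 smallest p-values among those called in the mean response were named, with 1 more that was called the other way or was the brightest not called. The 5 probe sets most like Myc and Bmyc and the 3 least like Myc were named by r. Alternatives varied the offset, scaling, filter, trend, arrays in the fit, a replicate block and a Gapdh covariate. Same-numbered arrays did not deviate together (r from -0.16 to 0.02 between groups), so the numbers were not used as pairs. The scripts were tested on simulated data. Figures used matplotlib 3.10.9 in Python 3.11.15.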

Additional observations from a re-analysis of the deposited data

How the results depend on the processing

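The number of arrays limits the precision: the call of Mxi1 in the mean response changed with the processing, and Max passed under no alternative run. Counts of members that passed stayed at 2 in IgMG cells, 3 to 4 in IgM cells, 3 to 4 in the mean response and 0 in the other comparisons under every alternative run. Over all tested probe sets the calls ranged from 58 to 536 in IgMG cells (main 402), 341 to 1278 in IgM cells (1041), 842 to 1648 in the mean response (1505), 0 to 13 in the difference of responses (0), 0 to 32 between receptors without HEL (0), 0 to 6 with HEL (1) and 0 to 43 on average (0). The fewest calls came without the IgMG array with HEL of replicate 2 (58 in IgMG cells, 842 on average) and without the unstimulated IgM array of replicate 1 (341 in IgM cells), and the most between receptors without HEL (32) came without the unstimulated IgMG array of replicate 1. Scaling to a common median shifted the median difference of responses by 0.12. With the replicate number as a block the members that passed were 2 in IgMG cells, 3 in IgM cells and 3 in the mean response, where Mxi1 had an adjusted p = 0.0680 in limma. A crossed pairing of the unstimulated arrays, added after seeing the data, called 0 members and 0 of all tested probe sets.

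Some values that did not pass the test changed sign, and the cause was not tested. With the Gapdh ratio as a covariate, the log2 change in IgM cells was 0.083 for Max and 0.022 for Gsk3a, and in IgMG cells -0.15 for Max, -0.12 for Sin3a, 0.10 for Nme2 and 0.090 for Fth1. The difference of responses was then -0.037 for Bmyc and -0.24 for Max, IgMG against IgM with HEL -0.33 for Max, and the mean IgMG effect -0.039 for Mxi1. Without both arrays that stood apart, Max had 0.16 in IgM cells, -0.045 in IgMG cells and 0.060 on average. In IgMG cells Sin3a then had -0.13, Nme2 0.029 and Fth1 0.017. The difference of responses was -0.17 for Bmyc and -0.21 for Max, IgMG against IgM with HEL -0.23 for Max and -0.085 for Mxi1, and the mean IgMG effect -0.26 for Mxi1. Median scaling gave 0.026 for Nme2 and 0.027 for Fth1 in IgMG cells. Quantile normalization gave -0.012 for Max in IgMG cells and -0.056 for Gsk3a on average.

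With each array left out in turn, the responses of Max ranged from -0.15 to 0.18 in IgMG cells, -0.29 to 0.16 in IgM cells and -0.14 to 0.092 on average. Those of Fth1 ranged from -0.17 to 0.064, -0.11 to 0.025 and -0.10 to 0.011 in the same order. In IgMG cells Sin3a ranged from -0.13 to 0.82 and Nme2 from -0.13 to 0.029, and on average Sin3a ranged from -0.36 to 0.11 and Gsk3a from -0.066 to 0.14. The difference of responses ranged from -0.38 to 0.073 for Myc, -0.023 to 0.51 for Bmyc and -0.14 to 0.31 for Max. IgMG against IgM without HEL ranged from -0.072 to 0.46 for Bmyc, -0.24 to 0.072 for Max, -0.43 to 0.098 for Mxi1 and -0.29 to 0.18 for Mxd4. With HEL it ranged from -0.23 to 0.23 for Max and -0.085 to 0.61 for Mxi1, and on average from -0.16 to 0.074 for Max and -0.13 to 0.22 for Mxi1.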

Other observations

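Several further Myc and Max network genes were too dim to be tested, and their signals are given as values only. Mycn had 22.9 and 0.7 in IgMG cells with HEL and 9.4 and 0.4 in IgM cells with HEL, against 4 and 14.1 in unstimulated IgMG cells and 7.3 and 7.4 in unstimulated IgM cells. Mycl lay between 8.6 and 47.3 over the 8 arrays, Mxd1 between 1.8 and 5.8, and Mxd3 between 10.5 and 40.3. Mxd3 had 12.2 and 17.8 in IgMG cells with HEL and 13.5 and 10.5 in IgM cells with HEL, against 15.6 and 40.3 in unstimulated IgMG cells and 27.9 and 31.9 in unstimulated IgM cells.

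Among the 7 palindromes counted beside the E-box, GACGTC, the core of the motif read by cyclic AMP response factors, also differed between genes that rose and the rest; it was singled out after its values were seen. It was in 16.9% of the windows of genes that rose in the mean response, 6.08% of those that fell and 8.77% of those that did not pass. In IgMG cells the shares were 18.5%, 4.58% and 9.02%, and in IgM cells 16.2%, 6.65% and 8.91%. Over all promoter windows GACGTC occurred in 4.4%.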
